A study of Rattus norvegicus with 12 samples.

Results

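Casr encodes the calcium-sensing receptor, and its RNA level was followed across age in the rostral ventrolateral medulla (RVLM), a part of the brainstem that sets sympathetic tone and so blood pressure. The gene was found by its symbol among the non-control probes of a whole rat genome array: 1 of 41012 probes carried it, a single gene among the 18334 gene names on the array. It was chosen because its level by age stood out in these same values, so its levels are given as a description, with no test. The study took frozen micropunches of RVLM from male rats of the inbred F344 strain, with no other treatment, after decapitation under isoflurane. There were 3 young animals of 3 months, 3 middle-aged animals of 12 months and 3 aged animals of 24 months. Each animal's RNA was labelled with 1 dye, and replicate 3 of every age was hybridised to a pair of arrays, which gave 12 arrays for 9 animals. A micropunch holds every cell type of the region, and nothing in the labels separates the cells.

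The calcium-sensing receptor is a G protein-coupled receptor of class C, the family that also holds the metabotropic glutamate receptors and the GABA-B receptor. It works as a dimer whose large extracellular part binds calcium, and also polyamines, amino acids and gamma-glutamyl peptides, and it signals mainly through Gq/11, phospholipase C and the release of stored calcium, and through Gi. Its best known role is in the parathyroid gland, where it holds back parathyroid hormone when blood calcium is high. In the brain it is found in neurons and in cells of the oligodendrocyte lineage.

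The Casr probe is a synthetic oligonucleotide of 60 bases, listed for RefSeq's Casr mRNA. The array files place it on chromosome 11 at chr11:66142002-66142060 of rat build rn3, with the positions in descending order. All 3 reading frames of the probe in the sense direction hold a stop codon, so it does not read through the coding sequence. Since every Casr value below rests on this 1 oligonucleotide, its first 30 bases (positions 1 to 30 from the 5′ end) are shown, 5′ to 3′ and in lower case: ctaatggagggaaaggctatccagttgaga. None of the other 41011 probes on the array shared a run of 20 bases with it on either strand (0 probes). A probe listed as Casrl1 in the array files belongs to a vomeronasal receptor gene under the current annotation and is not counted here.

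Casr was about 3 times as high in the young RVLM as at both later ages, and the step lay between 3 and 12 months. In bulk tissue, fewer cells that express a gene and less of its RNA per cell cannot be told apart. Levels are log2 processed signals minus the array's 75th percentile, so a difference of 1 is a doubling. The 3 young animals stood at −3.04, −3.01 and −2.80. The middle-aged animals stood at −4.55, −4.36 and −4.26. The aged animals stood at −4.46, −4.39 and −4.77. Every middle-aged and every aged animal was below every young animal. The lowest young level exceeded the highest middle-aged level by 1.22 and the highest aged level by 1.35. The group means were −2.95 ± 0.13 (SD, n = 3) in the young, −4.39 ± 0.15 (SD, n = 3) in the middle-aged and −4.54 ± 0.20 (SD, n = 3) in the aged animals.

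**Figure D1:**
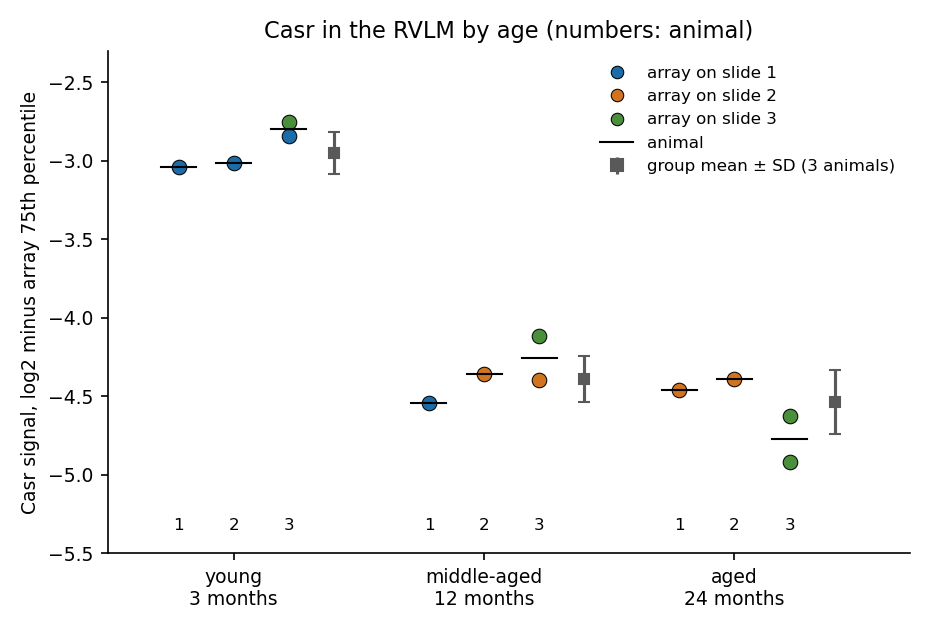
Casr level on each array (points, coloured by slide; vertical axis, log2 processed signal minus the array's 75th percentile) for the 9 animals at 3, 12 and 24 months, with a line at each animal's level and the group mean ± SD over 3 animals as a square. The young animals lie between −3.04 and −2.80, and the 6 older animals between −4.77 and −4.26.

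In fitted differences Casr was lower by 1.44 log2 units at 12 months than at 3 months (−1.44 ± 0.13, limma SE, n = 3 per group), which is 2.71-fold lower. At 24 months the difference from 3 months was −1.59 ± 0.13 (n = 3 per group), which is 3.00-fold lower. From 12 to 24 months the difference was −0.15 ± 0.13, within the spread between animals, whose pooled SD was 0.16. The ranges of the middle-aged and aged animals overlapped, so these neighbours in the order of levels did not differ beyond their spread, while both lay below the young by many times that spread. As a description of its size, the difference between 12 and 3 months ranked 6 from the lowest of 25445 items on the array, and that between 24 and 3 months ranked 8. Relative to the mean of the young animals, single middle-aged animals held 0.331 to 0.404 of the Casr signal and single aged animals 0.283 to 0.370.

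Casr was well above background on all 12 arrays, so the folds are measured on both sides. The probe was dim at the later ages all the same. The processed signal, a fluorescence intensity after background subtraction, was 79.1 to 98.3 on the 4 young arrays, 29.9 to 44.9 on the 4 middle-aged arrays and 22.8 to 37.2 on the 4 aged arrays. It was 7.37 to 8.72 times the lowest signal called well above background on the young arrays, 2.99 to 3.89 times on the middle-aged arrays and 1.89 to 3.52 times on the aged arrays. Both arrays of 1 animal differed in Casr by 0.091 in young replicate 3, 0.28 in middle-aged replicate 3 and 0.291 in aged replicate 3, against a median of 0.058 to 0.063 over all items. Arrays of the same animal thus differed more in Casr than in most items.

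The arrays sat on 3 slides, and slide was partly confounded with age. Slide 1 held 3 of the 4 young arrays and 1 middle-aged array, slide 2 held 2 middle-aged and 2 aged arrays, and slide 3 held arrays of replicate 3 of all ages. Within slide 1 the middle-aged array was 1.58 log2 units below the mean of the 3 young arrays (−1.58, 2.99-fold lower). Within slide 3 Casr differed from the young array by −1.36 on the middle-aged array and by −2.02 on the 2 aged arrays, with 1 animal per age. Within slide 2 the aged arrays differed from the middle-aged by −0.04, while within slide 3 they differed by −0.65. Fitted with slide as a block, the differences were −1.42 at 12 months and −1.58 at 24 months against 3 months. The step below the young level was therefore present within both slides that held young arrays, and a further step from 12 to 24 months appeared on slide 3 and not on slide 2.

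The size of the step depended on how background was treated. With normexp correction of the raw spot signals, which adds 50 to every spot before the logarithm, the difference was −0.67 at 12 months and −0.71 at 24 months. The raw spot signal was 120.1 to 138 on the young arrays and 75.1 to 93.4 on the older ones, over a local background of 38 to 46. The authors' series matrix, a score brought to log2 units here on the assumption that its SD equals that of the log2 processed signal, gave −1.42 and −1.69. In the other settings, apart from slide 3 alone, the differences ran from −1.53 to −1.36 at 12 months and from −1.67 to −1.47 at 24 months.

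**Figure D2:**
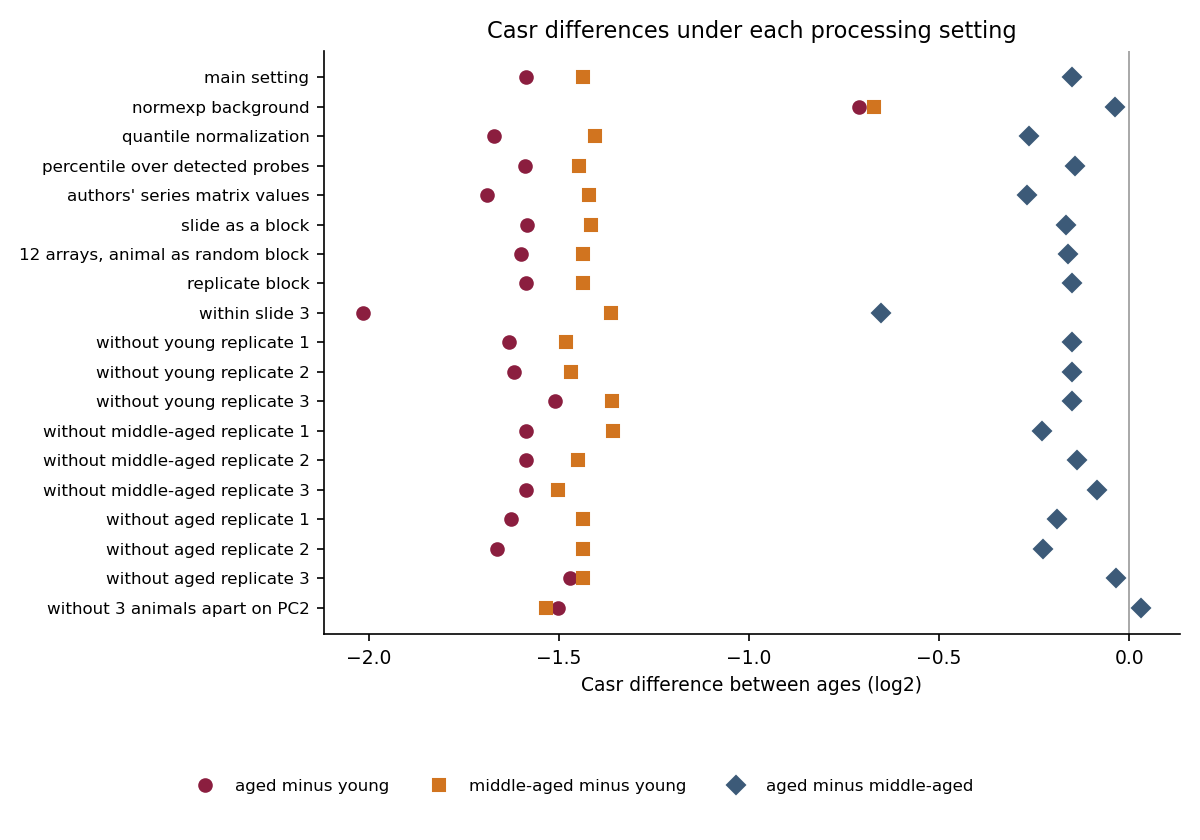
Casr difference between ages (horizontal axis, log2) under the main setting and each alternative (rows), with circles for aged minus young, squares for middle-aged minus young and diamonds for aged minus middle-aged. The differences from the young group are below 0 in every row and smallest with normexp correction (−0.71 and −0.67). Those between 12 and 24 months lie between −0.27 and 0.03 except on slide 3 (−0.65).

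The arrays were of like quality: 73.5% to 77.1% of spots were well above background, 0 were saturated, and the number of animals limits the precision. A second principal component, with 21.6% of the variance, set 1 animal of each age (replicate 2 of the young and replicate 3 of both older groups) apart from the rest. Without these 3 animals the Casr differences were −1.53 at 12 months and −1.50 at 24 months against 3 months, and 0.03 between 24 and 12 months. Dbh and Th, enzymes of catecholamine synthesis that mark the C1 neurons of the RVLM, were well above background on all 12 arrays. Dbh differed by −0.92 ± 0.20 between 3 and 24 months (limma adjusted p = 0.066). Of the defining markers of the parathyroid and thyroid, where Casr is abundant, Pth and Gcm2 were above background on 0 arrays, while Calca, which neurons also express, was on 12 and Tg on 11. 

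Other cell types' genes moved with age beside Casr. Oligodendrocytes, the cells that wrap axons in myelin, were followed by 7 myelin genes. Their median, relative to the mean of the young animals, ran from −0.03 to 0.05 at 3 months, from −0.43 to −0.24 at 12 months and from −0.59 to −0.32 at 24 months. Between 3 and 24 months all 7 differences were below 0, from −0.58 (Mbp) to −0.21 (Mag). At an unadjusted p under 0.05, 6 were lower, beside 1253 of all 25445 items. At the adjusted threshold 6 of the 7 did not pass, among them Mog, a protein of the outer myelin surface (−0.34 ± 0.09, limma adjusted p = 0.101), and Mobp (−0.46 ± 0.11, adjusted p = 0.078). Of all items 0.472% passed as lower between 3 and 24 months. Between 3 and 12 months 0 of the 7 passed with limma, where 0.0393% of all items passed as lower. Unadjusted, 5 were lower at p under 0.05, beside 669 of all 25445 items. The 5 genes of oligodendrocyte precursors had medians of −0.09 to 0.08 at 3 months, −0.14 to 0.08 at 12 months and −0.08 to 0.06 at 24 months, so these ranges overlapped.

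Microglia, the brain's resident macrophages, moved the other way. The median of 7 microglial genes ran from −0.11 to 0.10 at 3 months, from 0.44 to 0.66 at 12 months and from 0.82 to 1.07 at 24 months. Between 3 and 24 months 5 of 7 rose (Trem2, Tyrobp, P2ry12, Aif1 and Cx3cr1), against 1.57% of all items that passed as higher, and Csf1r and Itgam did not pass. Leaving out any young animal, or aged replicate 1 or 2, ended the call of Cx3cr1 (adjusted p up to 0.098). Between 3 and 12 months Trem2, a lipid-sensing receptor (1.09 ± 0.12, adjusted p = 0.019), and its adaptor Tyrobp (0.83 ± 0.11, adjusted p = 0.036) rose, against 0.161% of all items. Tyrobp lost that call without any 1 of the 9 animals (highest adjusted p = 0.144), and Trem2 without young replicate 3 or middle-aged replicate 1, 2 or 3 (highest adjusted p = 0.095). Without the 3 animals apart on the second principal component Trem2 alone of the 5 kept its call between 3 and 24 months. Between 12 and 24 months the microglial genes differed by a median of 0.48, with 0 past the threshold. Unadjusted, 5 were higher at p under 0.05, beside 1930 of all 25445 items.

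Genes of mural and meningeal cells stood at −0.20 to 0.18, −0.47 to −0.31 and −0.48 to −0.36 at 3, 12 and 24 months. In either comparison with the young 0 of 6 passed, and 5 were lower at an unadjusted p under 0.05. Of all 25445 items, 669 were lower at that unadjusted p at 12 months and 1253 at 24 months. The 4 red blood cell genes were at −0.26 to 0.36, −0.17 to −0.16 and 0.41 to 1.19. Neuronal genes were at −0.12 to 0.15, 0.02 to 0.31 and −0.26 to 0.10, and astrocyte genes at −0.02 to 0.05, −0.21 to −0.13 and −0.13 to −0.01. Endothelial genes were at −0.10 to 0.09, −0.23 to 0.07 and −0.13 to 0.00. Among the lymphocyte genes Cd6, a T cell surface receptor well above background on all 12 arrays, rose by 1.25 ± 0.14 between 3 and 24 months (adjusted p = 0.0037), where 1.57% of all items passed as higher, and lost its call without the 3 animals apart on the second principal component (adjusted p = 0.067). Cd4 was well above background on 7 arrays and Prf1 on 4, so each entered the fit through 1 age group alone and is not counted; Cd3d and Cd3g did not pass, and Cd3e and Cd8a were above background on 0 arrays. Like Casr, the oligodendrocyte list and the mural and meningeal list had no middle-aged or aged animal within the range of the young ones and were lower there. The part of any of these cell types in the Casr difference was not tested.

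**Figure D3:**
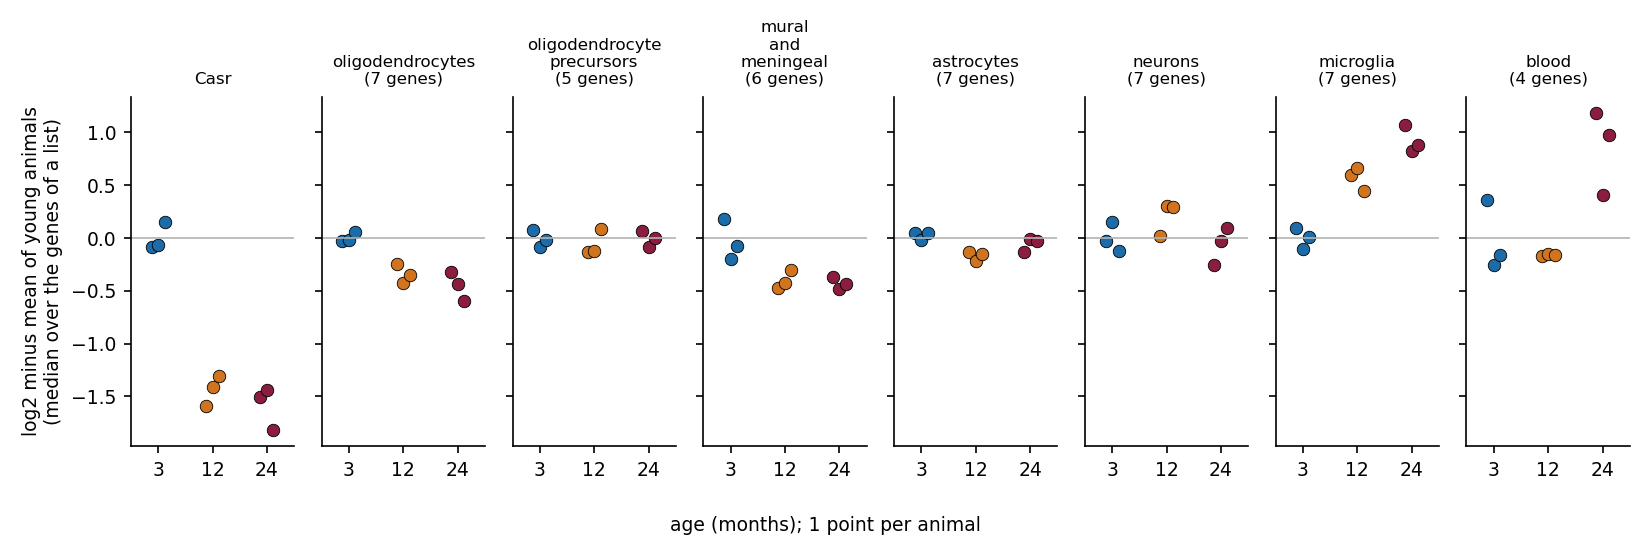
Casr and the median over 7 lists of cell type markers in each animal (points; vertical axis, log2 level minus the mean of the young animals) at 3, 12 and 24 months. Casr steps down to between −1.82 and −1.31 in the 6 older animals, oligodendrocyte markers to between −0.59 and −0.24, and microglial markers rise to between 0.44 and 1.07.

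Likeness to Casr was measured by Pearson r over the 9 animals, for 12225 items with a gene name other than a predicted locus. The points share arrays and age groups, so r is a description. Among all of them the median r was −0.03, 9 genes exceeded 0.95, 47 exceeded 0.9 and 53 were below −0.9. Among the 10 genes most like Casr were Pnlip, Ccne2, Sema6a, Secisbp2l, Sema4d, Igf2bp2, Scrg1, Tril and Desi1, with r of 0.98 to 0.95. Having been picked for following Casr, they are lower at the later ages by construction, and only their sizes are of interest.

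Pnlip, the gene of pancreatic lipase, had the highest r (0.98). Its young animals were at −0.71, −0.69 and −0.81, its middle-aged at −1.42, −1.35 and −1.43 and its aged at −1.42, −1.49 and −1.59. The step was −0.66 ± 0.07 at 12 months and −0.76 ± 0.07 at 24 months, smaller than that of Casr, with −0.10 ± 0.07 between 12 and 24 months. Igf2bp2, which encodes an RNA-binding protein of growth factor mRNAs, was further below its young level at 24 months than Casr was (−1.88 ± 0.10) and differed by −0.63 ± 0.10 between 12 and 24 months, beside −0.15 for Casr; the difference between these genes was not tested. Its animals were at −1.72, −2.06 and −1.92 when young, at −3.24, −3.20 and −3.03 when middle-aged and at −3.72, −3.77 and −3.86 when aged.

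The semaphorins Sema4d and Sema6a (r = 0.95 and 0.96), membrane-bound guidance proteins found on oligodendrocytes, were among the 10. Sema4d differed from the young by −0.49 ± 0.09 at 12 months and −0.53 ± 0.09 at 24 months, and Sema6a by −0.32 ± 0.07 and −0.37 ± 0.07. Scrg1 (−0.38 ± 0.08 at both ages), named for its rise in scrapie, and Secisbp2l (−0.18 ± 0.07 at both ages) had nearly the same level at 12 and 24 months. The cell cycle gene Ccne2 (cyclin E2), Tril, an accessory protein of Toll-like receptors, and Desi1, a protease that removes SUMO, differed by −0.54 ± 0.07, −0.25 ± 0.06 and −0.42 ± 0.07 at 24 months. All 10 were well above background on 12 arrays. Of the 7 oligodendrocyte markers 5 had r above 0.8, among them Mog (0.92) and Mobp (0.87). Over the 12225 named items the 95th percentile of r was 0.64 and the 99th was 0.84. Of the 7 microglial markers 5 had r below −0.8, where the 5th percentile of the named items was −0.72 and the 1st was −0.87.

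Most of the likeness lay between the ages. When each animal's deviation from its own age group was used, r with Casr ranged from 0.20 for Pnlip to 0.83 for Secisbp2l among the 10. The 5 genes with the lowest r were Eva1c, Gipr, Birc7, Ass1 and C3, at −0.97 to −0.95. Having been picked for running against Casr, they are higher at the later ages by construction. For deviations from the age group, r with Casr was −0.53 for Eva1c, −0.40 for Birc7 and −0.22 for Ass1. It was above 0 for Gipr (0.20) and C3 (0.70), so these genes did not run against Casr within ages. The incretin receptor Gipr stood at −2.35, −2.27 and −2.34 in the young, at 0.05, −0.29 and −0.13 in the middle-aged and at 0.43, 0.12 and −0.09 in the aged animals. Its step of 2.20 ± 0.14 lay between 3 and 12 months, with 0.28 ± 0.14 between 12 and 24 months. C3, the central protein of complement, differed by 1.43 ± 0.10 at 12 months and 1.73 ± 0.10 at 24 months, and Ass1, an enzyme of arginine synthesis, by 0.61 ± 0.09 and 0.66 ± 0.09.

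**Figure D4:**
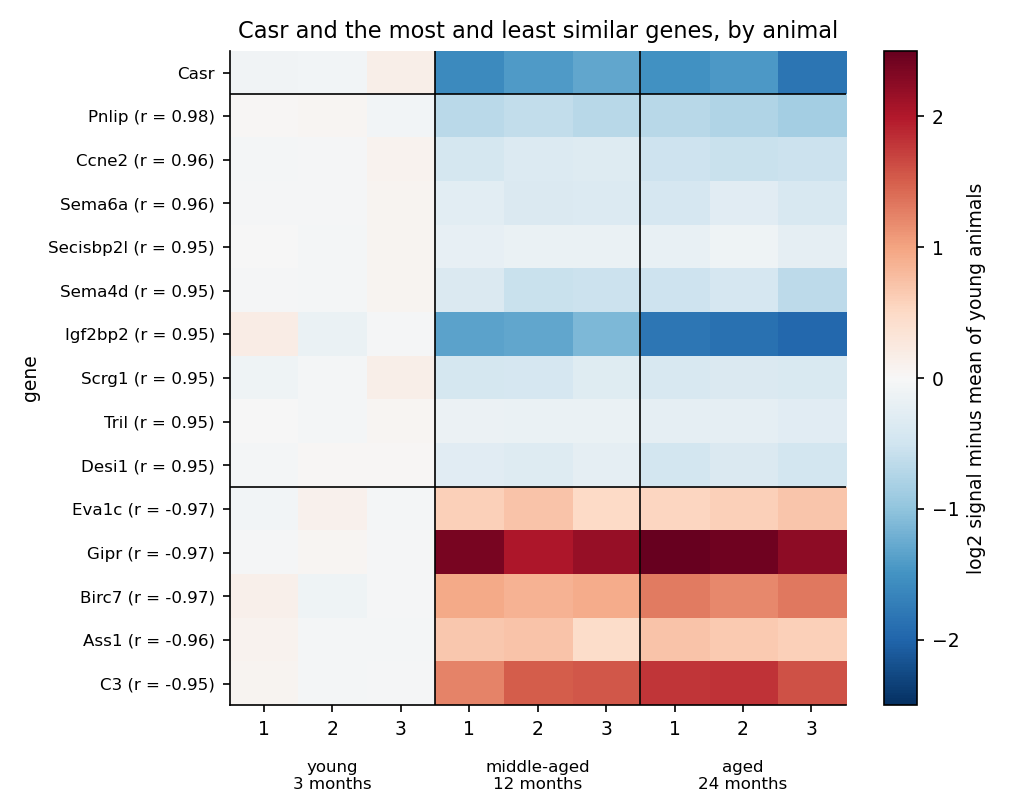
Level of Casr, 9 of the 10 genes with the highest and the 5 with the lowest Pearson r with it, in each of the 9 animals (columns), as log2 signal minus the mean of the young animals (colour scale, blue below and red above). Rows with a positive r are blue at both later ages, with Casr and Igf2bp2 the deepest, and Gipr is the reddest at 2.20 above the young mean at 12 months and 2.47 at 24 months.

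Genes tied to the receptor passed the threshold about as often as items on the whole array. On lists of the receptor's relatives, enzymes of agonist metabolism, trafficking partners, effectors, hormones and transport proteins there were 168 genes. Of these, 162 were found on the array by name and 143 were tested. Between 3 and 24 months 3 of the 143 rose and 0 fell in the limma fit, or 2.10%, close to the 2.04% of all items that passed (1.57% higher and 0.472% lower). At an unadjusted p under 0.05, 7 were higher and 8 lower, against 2610 higher and 1253 lower of all 25445 items (15.2% in either direction). Between 3 and 12 months 0 of 143 passed, against 0.2% of all items past the adjusted threshold. Unadjusted, 4 were higher and 1 lower, against 949 and 669 of all items (6.36%). Between 12 and 24 months 0 passed, against 0.0118% of all items. Unadjusted, 5 were higher and 2 lower, against 1930 and 794 of all items (10.7%). The median difference over the 143 genes was 0.00 in both comparisons with the young, beside 0.03 and 0.01 over all items, and the lowest single value was −0.49 (Gprc5c, an orphan receptor of class C, 24 against 3 months).

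Among the other class C receptors 0 of 15 tested passed in the limma fit in any comparison. At an unadjusted p under 0.05, 1 was lower between 3 and 24 months (15.2% of all items in either direction). Unadjusted, 1 was higher between 3 and 12 months (6.36% of all items) and 0 between 12 and 24 months (10.7%). The nearest relative in ligands, Gprc6a, a receptor for basic amino acids, was above background on 0 arrays. The GABA-B subunit Gabbr1, which can pair with Casr, differed by 0.43 ± 0.33 (adjusted p = 0.58) at 24 months. The metabotropic glutamate receptor Grm5 differed by 0.03 ± 0.19 (adjusted p = 0.96). The enzymes of polyamine and glutathione metabolism, and App, ranged from −0.17 (Smox) to 0.16 (Odc1) at 24 months, and 0 of 11 passed. Unadjusted, 0 of the 11 had a p under 0.05, against 15.2% of all items.

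Of 31 trafficking and desensitization genes 0 passed between 3 and 24 months. At an unadjusted p under 0.05, 2 were lower, beside 1253 of all 25445 items. Ap2s1, the clathrin adaptor subunit that takes the receptor in from the surface, differed by −0.08 ± 0.12 (adjusted p = 0.77), and the scaffold Flna (filamin A) by −0.14 ± 0.20 (adjusted p = 0.78). Of 32 G proteins and effectors only Plcb2 passed. Gnaq and Gna11, the G proteins that couple it to phospholipase C, differed by −0.19 ± 0.10 (adjusted p = 0.38) and 0.06 ± 0.10 (adjusted p = 0.83). Nalcn, the sodium leak channel that extracellular calcium controls in neurons, differed by −0.09 ± 0.10 (adjusted p = 0.73).

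The 3 genes that rose, a share close to that of all items, are known from immune cells. Plcb2, the phospholipase C of blood cells, rose by 0.85 ± 0.11 (adjusted p = 0.0068), but was 0.18 with normexp correction (adjusted p = 0.66). Il6r, the interleukin-6 receptor, rose by 0.54 ± 0.08 (adjusted p = 0.0095). Kcnn4, a calcium-activated potassium channel of microglia and lymphocytes, rose by 0.67 ± 0.13 (adjusted p = 0.039), but a fit blocked on slide gave 0.60 (adjusted p = 0.14). Kcnn4 also lost its call without any 1 of the young or aged animals or middle-aged replicate 1 (highest adjusted p = 0.129). In all 3 genes every aged animal was above every young animal, and their r with Casr was −0.91, −0.93 and −0.89. The 3 were named for rising and Casr was chosen for its level by age. Both features thus follow largely from the choice. The 3 genes moved with the microglial markers and Cd6 given above, whose part in them was not tested. Without the 3 animals apart on the second principal component 0 of the signalling genes passed.

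Several calcium hormones and factors that control Casr transcription were below detection. Pth, Vdr (the vitamin D receptor) and Gcm2 (the parathyroid transcription factor that drives Casr) were above background on 0 arrays, so the array gives no level for them. Pthlh, the parathyroid hormone-like peptide, differed by −0.00 ± 0.26 (adjusted p = 1.0) and Gata3 by 0.43 ± 0.48 (adjusted p = 0.71) between 3 and 24 months. Of 10 transcription regulators tested, Il6r rose and 9 did not pass. The median of the 10 was 0.37, and 4 were higher at an unadjusted p under 0.05. Over all 25445 items the median was 0.03 and 2610 were higher. Stat3, a factor through which interleukin-6 acts on transcription, stood 0.43 ± 0.09 higher without passing (adjusted p = 0.057). Of 22 genes of calcium and magnesium transport 0 passed between 3 and 24 months, and they ranged from −0.30 (Atp2a3) to 0.51 (S100g). Unadjusted, 0 of the 22 had a p under 0.05, against 15.2% of all items.

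**Figure D5:**
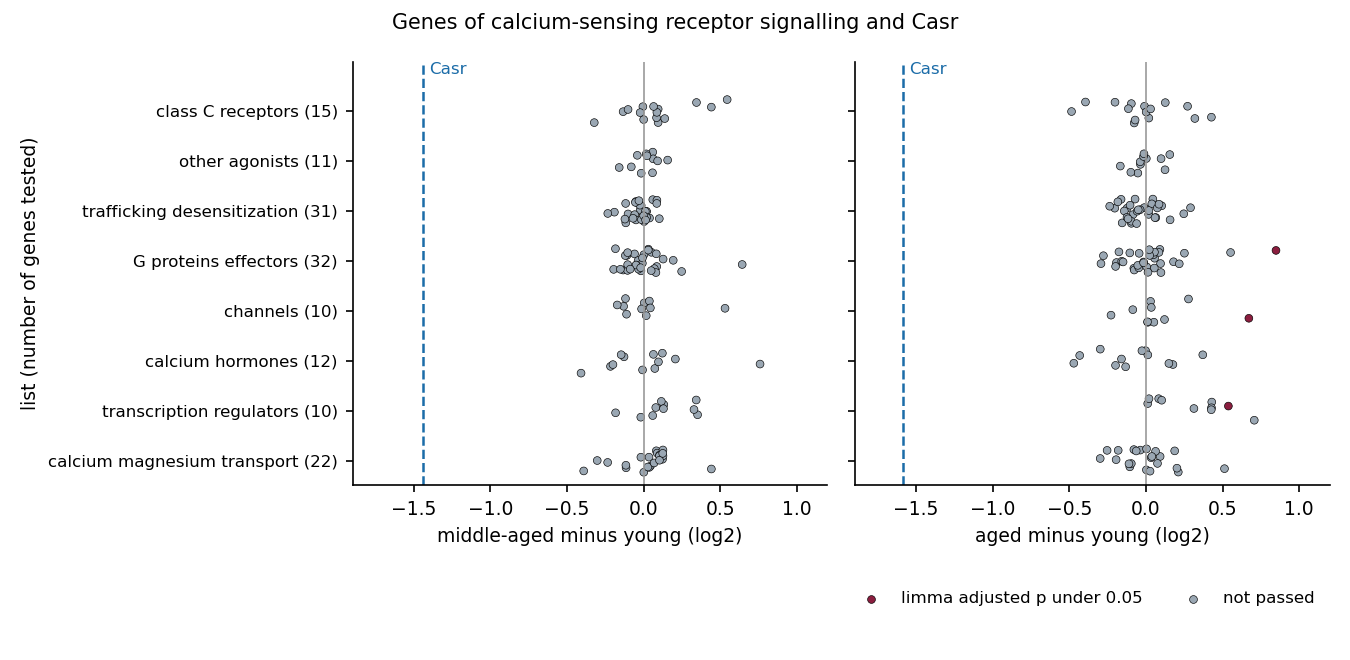
Difference from the young group (horizontal axis, log2) at 12 months (left) and 24 months (right) for 143 genes of calcium-sensing receptor signalling in 8 lists (rows; a gene can stand in more than 1), with dark points for limma adjusted p under 0.05 and the dashed line at Casr. Casr, at −1.44 and −1.59, lies below every gene of the lists, and Plcb2, Il6r and Kcnn4 are the dark points at 24 months.

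The genes next to Casr on the chromosome were read in the same way, in the order of the current RefSeq annotation. Of the 5 protein-coding genes on each side, 4 entered the fit, all on the side of Cd86 (Iqcb1, Eaf2, Slc15a2 and Cd86). Stfa3, Csta3 and Stfa2l1, cystatin genes on the other side, were above background on 0 arrays. Iqcb1, a ciliary protein gene, differed by 0.07 ± 0.07 (adjusted p = 0.98) and Slc15a2, a peptide transporter, by −0.14 ± 0.09 (adjusted p = 0.93) between 3 and 12 months, and by −0.06 ± 0.07 (adjusted p = 0.73) and −0.18 ± 0.09 (adjusted p = 0.38) between 3 and 24 months. Cd86, a costimulatory molecule of antigen-presenting cells, was the nearest gene in the fit. It was well above background on 0 of 4 young, 3 of 4 middle-aged and 4 of 4 aged arrays. It thus entered the fit through the aged group alone, so its difference is given with no test. With the lowest signal well above background standing in for the young, it was at least 1.90-fold higher at 24 months in the main setting. With the measured young values, which are below background, the log2 difference was 1.76 in the main setting. That log2 difference did not hold in other settings: blocking on slide gave 0.41 and normexp correction 0.17, both smaller. The r with Casr was 0.63 for Slc15a2, 0.07 for Iqcb1 and −0.27 for Eaf2. It is not given for Cd86, whose young values are below background.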

How the data were processed

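Per the file headers and the submitters' processing notes, the authors scanned 1-colour arrays and made the deposited intensity values with Agilent Feature Extraction 9.5.1.1; the processed signal is background-subtracted and detrended within an array, not scaled between arrays. The deposited series matrix is a score, centred and scaled within each array, and served as an alternative after multiplication by the mean SD of the log2 processed signal. Outlier spots were left out, spots of 1 probe were averaged on the log2 scale, and the 75th percentile of each array was taken off. Both arrays of replicate 3 were averaged. Of 41012 probes, 29797 were kept because all arrays of some age group called them well above background. The brightest kept probe stood for a gene, and unnamed probes for themselves (25445 items, 14112 named through RefSeq or the files). The 9 animals' values were fitted by age group (limma 3.58.1, R 4.3.3). An item passed, and rose or fell, at a two-sided adjusted p (Benjamini-Hochberg over all items) under 0.05. The fit was tested on simulated data. Named were Casr, listed signalling genes that passed or were set as named, 5 neighbours a side, and the 10 most and 5 least alike genes; some results under this rule are not reported here. Members and lists were chosen with earlier results of these data known. P-values set each difference against the spread between these animals within age groups, which limma estimates with the help of all items. Alternatives covered background, scaling, slide, pairing, filters and single animals.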

Additional observations from a re-analysis of the deposited data

How the results depend on the processing

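The Casr difference between 3 and 12 or 24 months kept its sign in every alternative run. It moved by more than the spread between animals with normexp correction (−0.71 at 24 months and −0.67 at 12 months) and, at 24 months, within slide 3 (−2.02). Between 12 and 24 months it was −0.65 within slide 3 and 0.031 without the 3 animals apart on the second principal component, an alternative chosen after seeing the data. There was 1 Casr probe, so no second probe could be tried. Replicate numbers pair nothing in the labels, and deviations of same-numbered animals correlated at −0.41 to 0.37; with the replicate number as a block the Casr differences were −1.59, −1.44 and −0.15, 8 items passed between 3 and 12 months and 0 between 12 and 24 months.

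Items past the threshold between 3 and 24 months (520) were 322 with normexp, 327 with slide as a block, 289 with no filter on dim probes, 343 in a fit of only these groups, 55 without the 3 animals apart, and 271 to 510 without 1 animal, with 271 when young replicate 3 was left out, 300 for replicate 2 of that age, and 317, 309 and 337 for replicates 1, 2 and 3 of the aged. Between 3 and 12 months (51) they were 26, 18, 5, 3 and 3 in the same settings, 33 with the series matrix values, and 2 to 26 without 1 animal, lowest without middle-aged replicate 2. Between 12 and 24 months (3) they were 26 when the 12 arrays entered singly, blocked on animal, 1 with slide as a block, quantile normalization or only these groups, 0 with the series matrix values, no filter or without the 3 animals apart, and 0 to 4 without 1 animal. Signalling genes that passed between 3 and 24 months (3) were 5 on 12 arrays, 1 with normexp and 0 without the 3 animals apart. By Spearman's rho 6 of the 10 genes most like Casr stayed among the 100 most alike; by Pearson r 9 did with normexp and 10 with quantile normalization or without any 1 animal. The dim Casr signal at the later ages, 1.89 to 3.89 times the lowest detected signal, limits how exactly the fold is known.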

Other observations

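Because the semaphorins were among the genes most like Casr, 12 genes known from newly formed oligodendrocytes, were looked up after these values had been seen; they carry no test. Of these, 9 were measured and the others are not analysed here. Rras2, a small GTPase, was nearest to Casr (r = 0.95 over 9 animals): the young animals were at −1.29, −1.26 and −1.16, the middle-aged at −1.99, −2.21 and −1.83 and the aged at −2.10, −1.96 and −1.93, so the step of −0.77 ± 0.10 lay between 3 and 12 months, with 0.02 ± 0.10 after it. Enpp6, a choline phosphodiesterase of cells starting to myelinate (r = 0.89), differed by −0.33 ± 0.09 at 12 months and −0.29 ± 0.09 at 24 months, and Cnksr3 (r = 0.79) by −0.25 ± 0.08 and −0.23 ± 0.08. Bcas1, another gene of this stage, ran the other way (r = −0.83, 0.38 ± 0.08 at 24 months), and Nkx2-2, a transcription factor of the lineage, was level (0.01 ± 0.06 and 0.03 ± 0.06). The median difference of the 9 was −0.22 at 12 months and −0.14 at 24 months.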
